A study of Arabidopsis thaliana with 9 samples.

Results

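The plasma membrane intrinsic proteins, abbreviated PIPs, form the water channel family of the plant cell surface. The present account follows 10 of the 13 PIP genes of Arabidopsis thaliana, PIP1-1 to PIP1-5 together with PIP2-1, PIP2-2, PIP2-3, PIP2-6 and PIP2-7, chosen by their locus identifiers from the 32833 genes of the expression table. All 10 passed the filter on low values in each comparison. Transcripts were measured in rosettes of 4-week-old plants of the ecotype Columbia-0, which carry no transgene or mutation, with 3 samples in each of 3 groups and rosettes of 10 plants pooled into each sample. Control plants received neither stress, submergence means 30 min under still water, and flooding means 30 min under water moving at 8 L per second. Flooding took place in an open water channel with the plants held by metal anchors, and submergence in a plastic container. Flow, vessel and anchoring therefore cannot be told apart between the stresses. Rosettes hold leaves, veins and the shoot apex together, so fewer cells of a type and less RNA per cell cannot be told apart.

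PIPs are six-helix membrane proteins that assemble as tetramers, and each subunit forms its own pore. In leaves they carry water out of the veins and across the membranes of mesophyll and guard cells, and some also pass hydrogen peroxide or carbon dioxide. PIP2 proteins reach the plasma membrane unaided, whereas PIP1 proteins, as first worked out in maize, generally need a PIP2 partner to get there, and the channels close when the cytosol turns acid, as it does in cells short of oxygen. Gene names are given with a hyphen, as most are in the deposited table, and PIP1-2 and PIP2-2 appear there as PIP1B and PIP2B.

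The 3 members whose changes passed the threshold under every alternative processing tried were PIP2-7, which rose in submergence, and PIP2-2 and PIP1-5, which fell in flooding. Their genomic sequence is shown for the 250 bases that precede the annotated gene start, read 5′ to 3′ along the gene's own strand from the TAIR10.1 assembly. The windows are chr4:16708111-16708360 on the plus strand for PIP2-7, chr2:15615023-15615272 on the minus strand for PIP2-2 and chr4:12220391-12220640 on the plus strand for PIP1-5, and none of them overlaps another annotated gene. Capitals mark the W-box core TTGAC, the word at the centre of WRKY factor binding sites.
PIP2-7: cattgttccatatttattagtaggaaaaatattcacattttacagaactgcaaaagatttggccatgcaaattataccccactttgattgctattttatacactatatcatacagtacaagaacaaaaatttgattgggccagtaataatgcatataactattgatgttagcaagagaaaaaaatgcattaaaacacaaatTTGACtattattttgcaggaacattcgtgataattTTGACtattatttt
PIP2-2: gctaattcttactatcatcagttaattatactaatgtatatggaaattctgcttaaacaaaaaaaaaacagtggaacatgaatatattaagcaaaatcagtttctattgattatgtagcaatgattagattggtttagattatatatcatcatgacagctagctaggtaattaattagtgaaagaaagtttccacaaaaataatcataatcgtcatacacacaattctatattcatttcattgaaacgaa
PIP1-5: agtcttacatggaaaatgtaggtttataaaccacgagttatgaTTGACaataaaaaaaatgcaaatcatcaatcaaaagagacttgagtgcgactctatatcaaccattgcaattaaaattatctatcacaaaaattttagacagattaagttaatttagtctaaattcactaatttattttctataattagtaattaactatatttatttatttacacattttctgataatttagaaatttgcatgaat

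PIP2-7 held 2 W-box cores, starting 49 and 14 bases before the gene start, PIP1-5 held 1, starting 207 bases before it, and PIP2-2 held none. Over the 10 members the core was found on either strand in 5, PIP1-3, PIP1-4, PIP1-5, PIP2-1 and PIP2-7, against 44.9% of the 27443 windows of the same length before nuclear protein-coding genes. The cold and drought element core CCGAC was found in 1 member, PIP1-3, against 12% of all windows. Neither the abscisic acid element core ACGTG (22.9% of all windows), the CAMTA core CGCGT (6.87%), the GCC-box GCCGCC (1.87%) nor the evening element AAATATCT (4.79%) was found in any member's window. Both strands were searched for every word, no hit overlapped a hit of another word in these 10 windows, and a word match is a description of the letters only.

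PIP2-2 and PIP2-3 are neighbours on chromosome 2 and the most alike pair among the 10 members. Their 858-base coding sequences were 94.8% identical, differed at 45 bases and shared an unbroken run of 242 bases, while identities within the PIP1 group were 79.3% to 87.6% and those between the PIP1 and PIP2 groups were 67.3% to 71.1%. The 90-base coding stretch in which they differ most, coding bases 403 to 492, is printed here. Reads can be told apart wherever they cover a differing base, inside or outside this stretch. Capitals mark the 12 differing bases.
PIP2-2: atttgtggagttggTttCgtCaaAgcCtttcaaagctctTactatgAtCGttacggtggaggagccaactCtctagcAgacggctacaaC
PIP2-3: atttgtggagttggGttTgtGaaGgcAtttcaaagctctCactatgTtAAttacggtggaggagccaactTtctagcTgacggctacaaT

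Of the 50-base words in 1 annotated transcript per member, 254 were shared between both genes, which is 22% of the words of PIP2-2 and 21.7% of those of PIP2-3. No such word of the other 8 members occurred elsewhere in the genome or in the transcript of another member. Values of PIP2-2 and PIP2-3 are therefore less certain than those of the other members, since the division of shared reads between them in the deposited values is not stated.

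All levels are given in FPKM, the fragment count scaled by transcript length and library size, and its sum per library ranged from 752249 to 786474. Scaling by library size draws these sums together, so they do not show that libraries are alike. The median ratio of each library to the geometric mean over libraries was 1.012 to 1.071 in the controls and 0.974 to 1.048 in submergence. In flooding it was 0.993, 1.025 and 0.88. Read counts behind each FPKM were not used here, so depth per gene is unknown. Root markers were close to 0 in every library, with a summed level over 6 genes of 0.11 to 0.48 FPKM. Levels of the shoot apex markers differed within groups, with a sum over 5 genes of 12.9 to 15.8 FPKM in the controls, 12.4 to 22.2 in submergence and 10.4 to 18.9 in flooding. The apex genes STM and KNAT1 summed to 0.03 FPKM in control 2, 0.06 in submergence 3 and 0.08 in flooding 3, and to 1.9 to 9.45 FPKM in the other 6 libraries, while the apex gene CLV3 was listed at 0 in every library and CLV1 was at 10.3 to 13.9 FPKM throughout. Calls of members, other aquaporins and regulators that rest on those 3 libraries are given with and without them, and calls of cell type markers were not refitted.

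Under control conditions the members spanned a wide range of levels. PIP2-1 (AT3G53420), at chr3:19803473-19805730 on the minus strand, was the highest with 374.6 ± 24 FPKM (SD, n = 3), 275th among all genes, and PIP2-3 was the lowest with 27.8 ± 2.5 FPKM. PIP1-2 followed PIP2-1 at 330.4 ± 15.5 FPKM. PIP2-6 (197.6 ± 9.2 FPKM) and PIP1-3 (188.2 ± 9.4 FPKM) came next, and they were the only neighbours in the order whose control libraries overlapped. Below them stood PIP2-7 (141.7 ± 6.7 FPKM), PIP1-4 (108.6 ± 3.5 FPKM), PIP1-1 (93.0 ± 6.5 FPKM), PIP1-5 (59.6 ± 4.7 FPKM) and PIP2-2 (47.1 ± 1.8 FPKM). PIP2-1 made up 23.9% and PIP1-2 21.1% of the summed FPKM of the 10 members.

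**Figure D1:**
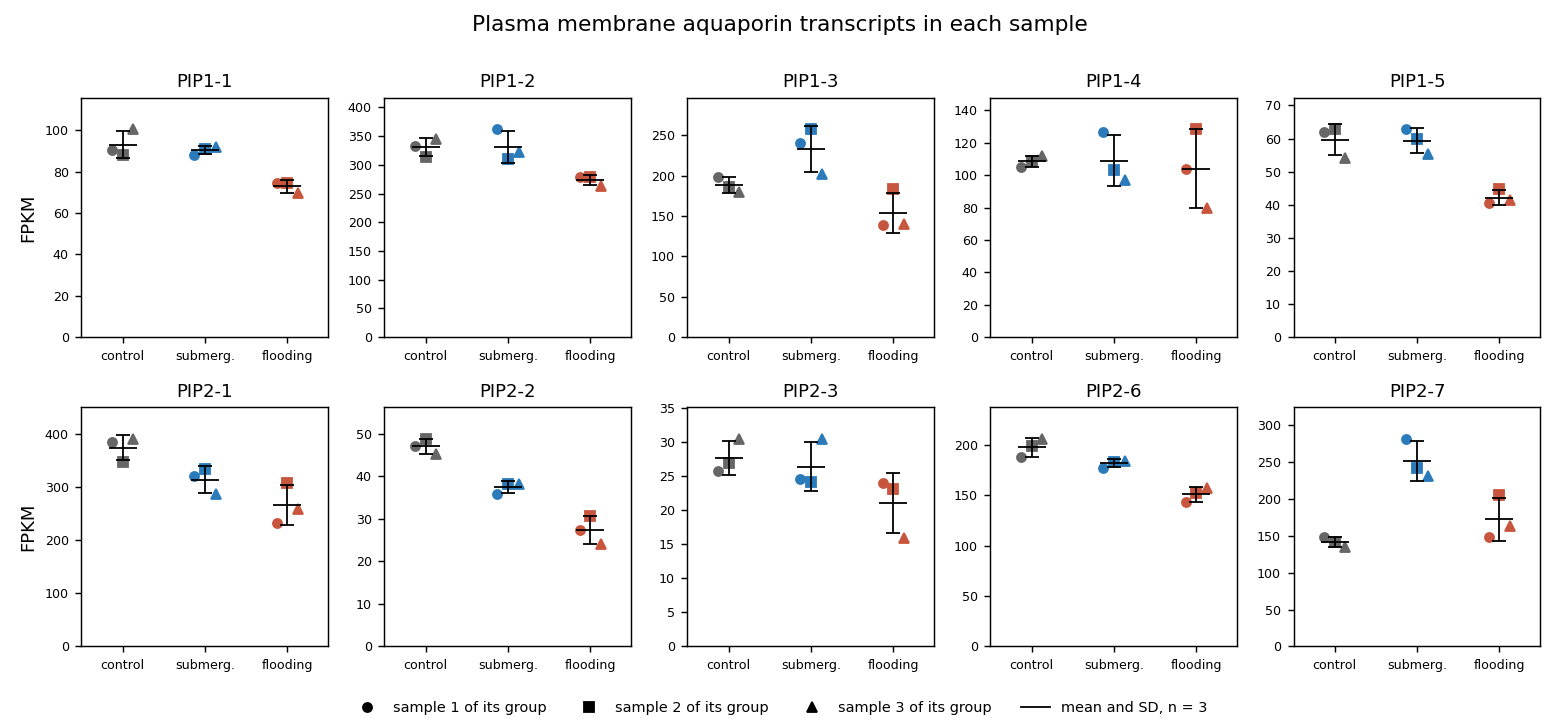
FPKM (vertical axes, each from 0) of the 10 members in every library. Points are single samples, grey for control, blue for submergence and red for flooding, and the bars give the mean and SD of 3 samples. PIP2-7 stands higher in all 3 submergence samples (230.4 to 281.2) than in any control (134.9 to 148.3), and PIP2-2 steps down from control (45.2 to 48.9) to submergence (35.9 to 38.3) to flooding (24.1 to 30.7).

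Flooding with flowing water against control was the comparison in which most members passed the threshold. In flooding 6 of the 10 members were down-regulated and 0 were up-regulated, where 17.2% of the 18806 genes tested were down-regulated and 11.4% up-regulated. The threshold was an adjusted p under 0.05 in limma, which models log2(FPKM + 0.1) over all genes, with Benjamini-Hochberg adjustment. The members that fell were PIP1-1, PIP1-2 and PIP1-5 of the PIP1 group and PIP2-1, PIP2-2 and PIP2-6 of the PIP2 group. The median log2 change of the members was −0.37, and that of all genes tested was −0.10. In 7 members every flooding library was below every control library, and in 1 every flooding library was above. Those arrangements held for 30.8% and 15.8% of all genes tested.

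PIP1-1 (AT3G61430, chr3:22733243-22735394, plus strand) read 90.6, 88.0 and 100.4 FPKM in the controls, 88.2, 91.0 and 92.1 in submergence and 74.5, 74.4 and 69.5 in flooding. All 3 flooding libraries lay below the other 6, and submergence overlapped the control. The log2 fold change was −0.35 ± 0.08 (SE, n = 3) in flooding (limma, adjusted p = 0.0179) and −0.04 ± 0.08 in submergence (adjusted p = 0.77).

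PIP1-2 (AT2G45960, chr2:18910081-18911982, plus strand), which also conducts carbon dioxide into leaf cells, read 332.4, 314.0 and 344.7 FPKM in the controls, 361.7, 309.4 and 322.2 in submergence and 278.7, 279.1 and 263.4 in flooding. The flooding libraries were again the lowest 3. PIP1-2 fell by 0.27 on the log2 scale in flooding (SE 0.08, limma, adjusted p = 0.0457), close to the threshold, and its change in submergence was 0.00 (adjusted p = 0.996), with a 95% interval from −0.21 to 0.21.

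PIP1-5 (AT4G23400, chr4:12220641-12222468, plus strand), whose upstream window is printed above, read 61.9, 62.8 and 54.2 FPKM in the controls, 62.8, 59.8 and 55.3 in submergence and 40.4, 44.6 and 41.4 in flooding. Control and submergence values were interleaved, and all flooding values were lower than both. PIP1-5 fell by 0.50 on the log2 scale in flooding (SE 0.09, limma, adjusted p = 0.0057) and had a log2 change of −0.01 in submergence (adjusted p = 0.969).

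PIP1-3 and PIP1-4 did not pass the threshold in any comparison. PIP1-3 (AT1G01620, chr1:225665-227543, minus strand) read 198.5, 186.0 and 180.2 FPKM in the controls, 240.3, 257.1 and 201.4 in submergence and 139.3, 182.8 and 139.5 in flooding. Every submergence library was above every control, whereas flooding 2 lay among the controls. Its log2 fold change was 0.30 ± 0.11 in submergence (limma, adjusted p = 0.0985) and −0.30 ± 0.12 in flooding (adjusted p = 0.108). Without submergence 3 the first was 0.40 and passed (adjusted p = 0.034), and without flooding 2 the second was −0.43 and passed (adjusted p = 0.013). Under quantile normalization the second was −0.37 and passed (adjusted p = 0.0486).

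PIP1-4 (AT4G00430, chr4:185285-187680, minus strand), which carries hydrogen peroxide into cells during immune responses, varied more within the stressed groups than between groups. It read 105.1, 108.9 and 112.0 FPKM in the controls, 126.8, 103.3 and 97.1 in submergence and 103.8, 128.3 and 79.6 in flooding. The lowest library of each stressed group was number 3, the one with STM and KNAT1 near 0. Those 2 libraries also had the lowest median ratio of their groups (0.974 and 0.88). In control 2, the control with STM and KNAT1 near 0, PIP1-4 lay between the other controls. The log2 fold change was −0.09 ± 0.16 in flooding (limma, adjusted p = 0.725), and without the 3 libraries with STM and KNAT1 near 0 it was 0.09 (adjusted p = 0.634).

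PIP2-1 is a main water channel of rosettes and of guard cells, where phosphorylation opens it during stomatal closure. Its levels were 385.1, 347.1 and 391.5 FPKM in the controls, 321.1, 334.9 and 286.7 in submergence and 232.5, 307.1 and 258.2 in flooding. Both stressed groups lay wholly below the control and overlapped each other. The log2 fold change was −0.50 ± 0.12 in flooding (limma, adjusted p = 0.0193) and −0.25 ± 0.09 in submergence (adjusted p = 0.108).

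PIP2-2 (AT2G37170, chr2:15613368-15615022, minus strand), known for its part in water uptake by roots, fell in both stresses. It read 47.2, 48.9 and 45.2 FPKM in the controls, 35.9, 38.3 and 38.2 in submergence and 27.5, 30.7 and 24.1 in flooding. The 3 groups did not overlap. The log2 fold change was −0.33 ± 0.07 in submergence (limma, adjusted p = 0.0203) and −0.78 ± 0.10 in flooding (adjusted p = 0.0013), which corresponds to 0.581 times the control level on the FPKM + 0.1 scale.

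PIP2-3 (AT2G37180, chr2:15617635-15619155, plus strand), first described as a gene responsive to drying, shares the reads discussed above with PIP2-2. It read 25.8, 26.9 and 30.5 FPKM in the controls, 24.6, 24.2 and 30.5 in submergence and 24.1, 23.1 and 16.01 in flooding. Every flooding library was below every control, and flooding 3 was well below the other 2. The log2 fold change of −0.42 ± 0.16 in flooding did not pass (limma, adjusted p = 0.0978), and without flooding 3 it was −0.23.

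PIP2-6 (AT2G39010, chr2:16291280-16294101, plus strand), which acts with PIP1-2 and PIP2-1 in the water supply of rosette leaves, read 187.9, 198.7 and 206.2 FPKM in the controls, 177.0, 183.3 and 184.3 in submergence and 143.0, 152.4 and 157.5 in flooding. The groups were stacked without overlap, control highest and flooding lowest. PIP2-6 fell by 0.39 on the log2 scale in flooding (SE 0.08, limma, adjusted p = 0.0111), and its log2 change in submergence was −0.12 (adjusted p = 0.284).

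PIP2-7 (AT4G35100, chr4:16708361-16710407, plus strand), a member that is handed from the Golgi to the plasma membrane by the syntaxins SYP61 and SYP121, moved the other way. It read 148.3, 141.8 and 134.9 FPKM in the controls, 281.2, 241.0 and 230.4 in submergence and 148.7, 204.5 and 162.4 in flooding. All submergence libraries were above both other groups, and flooding 1 lay next to the highest control. The log2 fold change was 0.82 ± 0.10 in submergence (limma, adjusted p = 0.0025), 1.77 times the control level on the FPKM + 0.1 scale, and 0.27 ± 0.13 in flooding (adjusted p = 0.157). Its share of the summed FPKM of the members was 9.04% in the control, 15.3% in submergence and 13.3% in flooding.

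**Figure D2:**
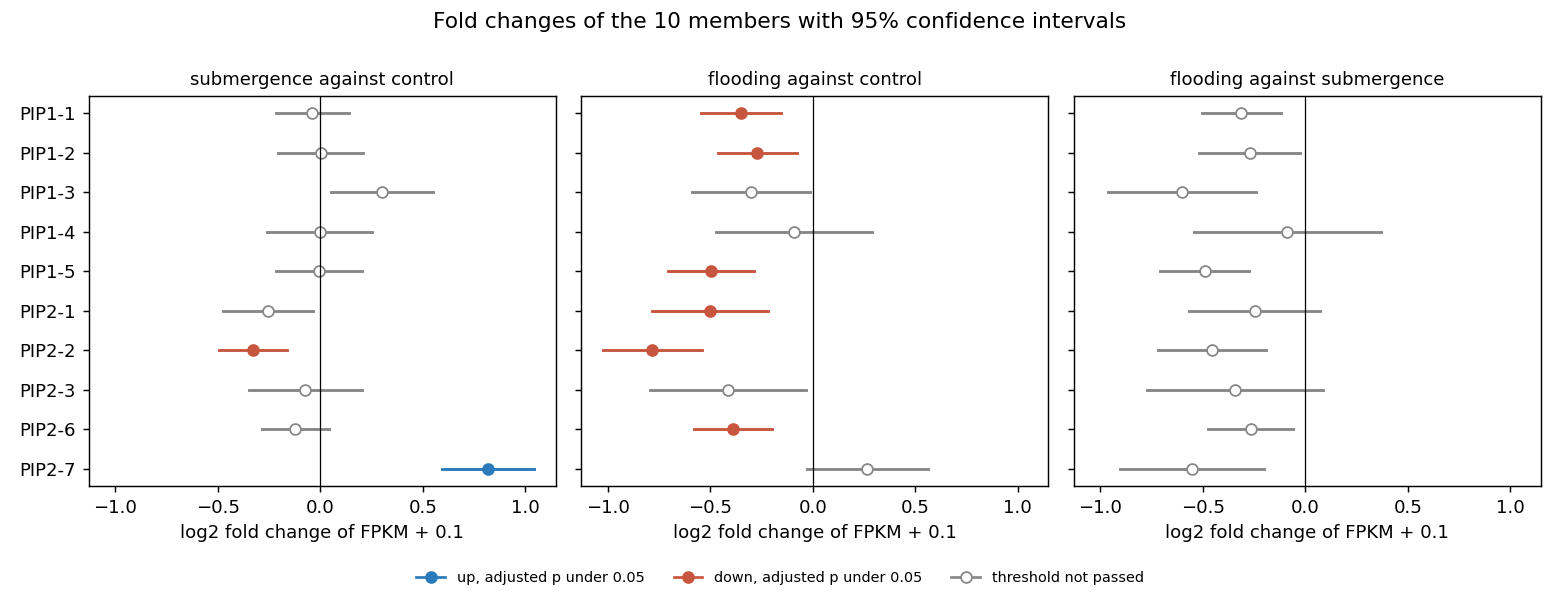
Log2 fold change of FPKM + 0.1 (horizontal axis) of each member in the 3 comparisons, with its 95% confidence interval from limma. Filled points passed an adjusted p of 0.05, blue for up and red for down. In flooding against control 9 of 10 points lie below 0 and 6 of them are filled, PIP2-7 and PIP2-2 are the filled points in submergence, and every point of the third panel is below 0 with none filled.

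The number of members that fell in flooding depended on scaling and on single controls. With each library rescaled by the median of its ratios to the geometric mean over libraries, 2 members were called, PIP1-5 and PIP2-2, and over all genes the calls shifted from 2137 up and 3229 down to 2622 up and 2299 down. Without control 3 the count was 2, without control 1 it was 3, and without control 2 or flooding 1 it was 4, with PIP1-5 and PIP2-2 among them each time. Over all genes the down calls also shifted, to 1777 without control 3, 1814 without control 1, 1643 without control 2 and 2409 without flooding 1. Without the 3 libraries with STM and KNAT1 near 0 the member count was 5, where 2072 genes were down. Under quantile normalization it was 7, where 3961 genes were down. Between 18766 and 18896 genes were tested in each of these fits. PIP1-2 passed under 5 of 15 alternatives and lost its call without any one control, flooding 1 or flooding 2 (limma, adjusted p from 0.0624 to 0.165). It also lost its call without the 3 libraries with STM and KNAT1 near 0 (adjusted p = 0.0644). PIP1-1 lost its call without control 1 (adjusted p = 0.0546) or control 3 (adjusted p = 0.0742), and PIP2-6 without control 2 (adjusted p = 0.0533) or control 3 (adjusted p = 0.0564). PIP2-1 lost its call without control 1, control 3 or flooding 1 (adjusted p from 0.0615 to 0.0788).

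Fewer members passed the threshold in submergence in still water. In this comparison 1 of 10 members, PIP2-7, was up-regulated and 1, PIP2-2, was down-regulated, where 9.03% and 8.45% of the 18814 genes tested were called in those directions. Under median-of-ratios rescaling the counts in submergence were the same, while in flooding 0 members were up and 2 down. The median log2 change of the members was −0.02, next to −0.03 for all genes. PIP1-3 and PIP2-7 were the members with every submergence library above every control (16.6% of all genes tested), and PIP2-1, PIP2-2 and PIP2-6 were those with every one below (21.9%). PIP2-7 stayed past the threshold in each of 15 alternatives, with log2 changes from 0.74 to 0.88. The call of PIP2-2 was lost without control 1 (adjusted p = 0.0738), control 2 (adjusted p = 0.0954) or control 3 (adjusted p = 0.0557) and without the 3 libraries with STM and KNAT1 near 0 (adjusted p = 0.16), its log2 change staying between −0.38 and −0.30.

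Flowing against still water, the direct test of a difference between the stresses, called no member. All 10 members had a lower mean in flooding than in submergence, with a median log2 change of −0.33 against −0.07 for all genes. No gene of the 18864 tested passed the threshold in this comparison (0% in either direction), where the smallest adjusted p was 0.107. At an unadjusted p under 0.05 stood 7 of the 10 members and 14.7% of all genes. Every flooding library was below every submergence library in 8 members, an arrangement found in 15.4% of all genes, and above it in 0 members, against 6.2% of all genes. The largest differences were −0.60 ± 0.15 on the log2 scale for PIP1-3 (limma, adjusted p = 0.183), −0.55 ± 0.15 for PIP2-7 (adjusted p = 0.194), −0.49 ± 0.09 for PIP1-5 (adjusted p = 0.133) and −0.46 ± 0.11 for PIP2-2 (adjusted p = 0.179). With all 9 samples in a single model, which shares the estimate of spread among the groups, 88 genes were up and 139 down, and 1 member, PIP1-5, was among the latter (adjusted p = 0.0437). Differences between the stresses are thus given as values, and a larger effect of flooding than of submergence on the members was not called.

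With 3 samples against 3, an exact two-sided permutation test of a single gene cannot give a p below 0.1. That smallest value was reached in flooding against control by the 8 members whose groups did not overlap.

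Summed over the 10 members, FPKM was 1582.7, 1523.1 and 1599.8 in the controls, 1719.4, 1642.3 and 1538.3 in submergence and 1212.5, 1427.0 and 1211.5 in flooding. Of the submergence sums 2 lay above the control range and 1 within it, and all flooding sums were below it. The PIP1 sum was 779.9 ± 17.6 FPKM in the control, 822.8 ± 55.8 in submergence and 646.4 ± 58.5 in flooding (SD, n = 3). The PIP2 sum was 788.6 ± 23, 810.5 ± 36.1 and 637.2 ± 72.9 FPKM in the same order, close to the PIP1 sum in each group. In submergence the libraries of both sums overlapped those of the control.

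The other PIPs were hardly present in these shoots. PIP2-4, PIP2-5 and PIP2-8 were at 0.72 to 5.24 FPKM over all libraries and none was called in any comparison. PIP2-5 and PIP2-8, which were named after their values were seen, had their lowest level of all in flooding 3 (1.92 and 1.82 FPKM) and their highest in submergence 1 (5.24 and 4.32 FPKM), where STM and KNAT1 were near 0 and at their maximum. Control 2, where STM and KNAT1 were lowest, had the highest control levels of both (3.19 and 2.78 FPKM).

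Tonoplast intrinsic proteins, the water channels of the vacuole membrane, summed to 1004 ± 12 FPKM in the control, 813 ± 78.7 in submergence and 616.4 ± 59.2 in flooding over 10 genes. Of the 10 TIPs 4 were tested, and in flooding all 4 fell and 0 rose, while in submergence 2 fell and 0 rose. Over all genes tested, 17.2% were called down and 11.4% up in flooding, and 8.45% down and 9.03% up in submergence. TIP1-1 read 206.0, 234.9 and 305.1 FPKM in the controls, 128.9, 132.2 and 125.9 in submergence and 123.2, 118.2 and 100.5 in flooding. Both stressed groups were far below the control, with log2 fold changes of −0.93 ± 0.14 in submergence (limma, adjusted p = 0.0064) and −1.11 ± 0.16 in flooding (adjusted p = 0.0018).

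TIP2-2 likewise fell in both, by 0.62 on the log2 scale in submergence (limma, adjusted p = 0.0208) and by 0.70 in flooding (adjusted p = 0.0013). TIP1-2, at 554 ± 43 FPKM in the control the highest of all aquaporins, fell by 0.61 in flooding (adjusted p = 0.0083), and TIP2-1 fell by 0.50 (adjusted p = 0.0251). Without the 3 libraries with STM and KNAT1 near 0, TIP1-1 (adjusted p = 0.0769) and TIP2-2 (adjusted p = 0.118) lost their calls in submergence and TIP2-1 (adjusted p = 0.112) lost its call in flooding. TIP2-2 also lost its call in submergence without any one control (adjusted p from 0.062 to 0.0851), and TIP2-1 lost its call without control 1, control 2 or flooding 1 (adjusted p from 0.0811 to 0.0972) or under median-of-ratios rescaling (adjusted p = 0.057).

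Among the remaining subfamilies, 4 of 9 NIPs were tested in flooding and 3 in submergence, and all 3 SIPs were tested in both. NIP6-1, a boric acid channel of shoot nodes, read 5.62, 5.02 and 5.22 FPKM in the controls, 12.04, 12.7 and 6.65 in submergence and 7.14, 11.7 and 4.08 in flooding. It rose by 0.92 on the log2 scale in submergence (limma, adjusted p = 0.041), and in both stressed groups its lowest library was the one with STM and KNAT1 near 0. That call was lost without any one of the controls, submergence 1 or submergence 2 (adjusted p from 0.0709 to 0.134), and also with no filter on low values (adjusted p = 0.0618), without the intensity trend (adjusted p = 0.0631) and with all 9 samples in a single model (adjusted p = 0.122). Without the 3 libraries with STM and KNAT1 near 0 the call was kept, at a log2 change of 1.18 (adjusted p = 0.0204). SIP1-2, a channel of the endoplasmic reticulum, fell in flooding by 0.74 (adjusted p = 0.0068).

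**Figure D3:**
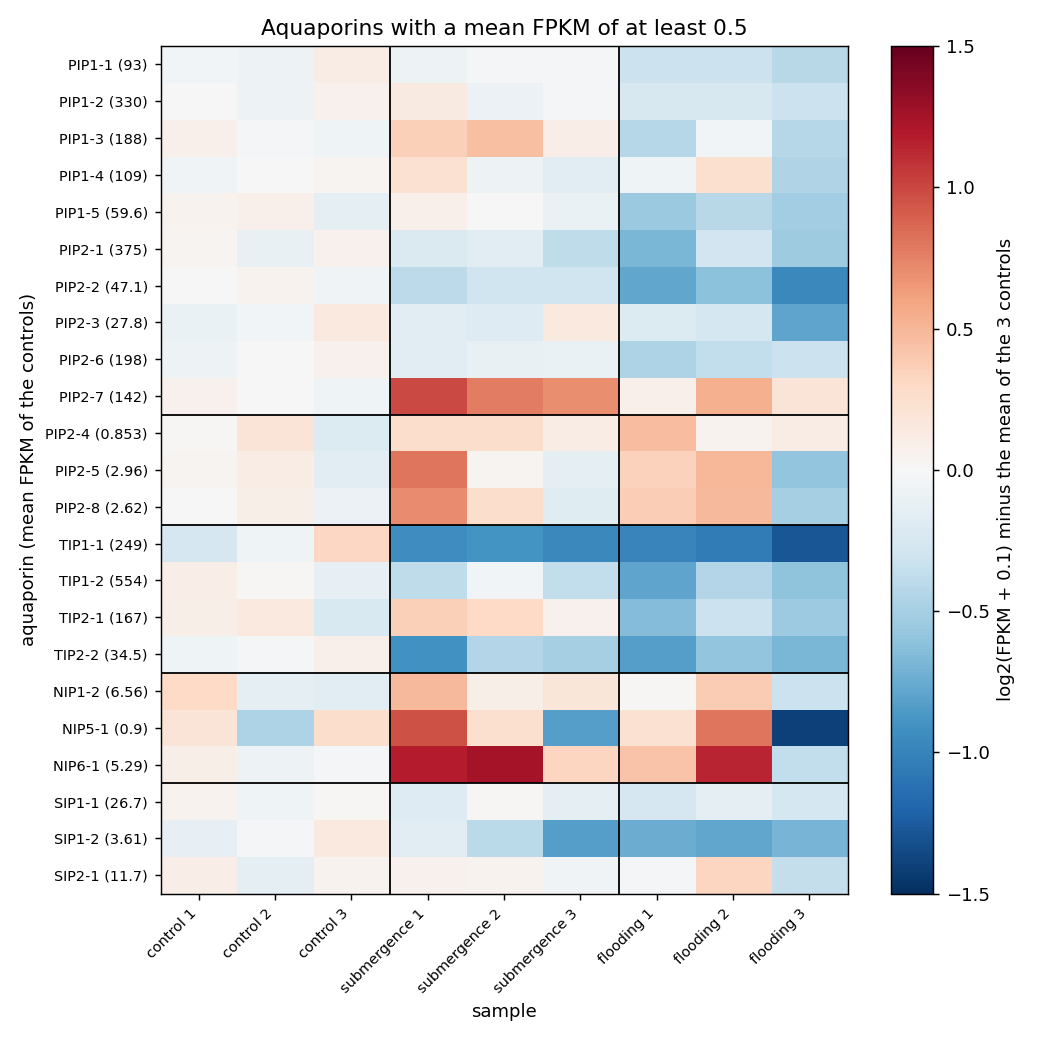
The 23 aquaporins that average 0.5 FPKM or more over the 9 libraries (rows, with the mean FPKM of the controls) in every library (columns). Colour gives log2(FPKM + 0.1) minus the mean of the 3 controls, blue for lower and red for higher, and lines separate members, other PIPs, TIPs, NIPs and SIPs. The flooding columns are blue for most members and TIPs, PIP2-7 and NIP6-1 are red in submergence, and flooding 3 stands apart from flooding 2 in NIP6-1 (4.08 against 11.7 FPKM).

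Proteins that deliver, modify or work beside PIPs were followed in a list of 11 genes. In flooding 3 rose and 3 fell, where 11.4% and 17.2% of all genes tested were called in those directions. In submergence 3 rose and 0 fell, where the shares were 9.03% and 8.45%. The median log2 change was −0.18 in flooding and 0.02 in submergence, next to −0.10 and −0.03 for all genes. SYP121, the plasma membrane syntaxin that delivers PIPs and also acts in immunity at the cell wall, read 54.7, 51.3 and 58.6 FPKM in the controls, 101.5, 144.4 and 166.5 in submergence and 235.6, 180.9 and 224.3 in flooding. The 3 groups did not overlap, and the log2 fold change was 1.3 ± 0.18 in submergence (limma, adjusted p = 0.0044) and 1.95 ± 0.12 in flooding (adjusted p = 2.39e-05).

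VAP27-1, a tether between the endoplasmic reticulum and the plasma membrane that binds PIP2 proteins, fell by 0.40 in flooding (limma, adjusted p = 0.0242). Its call was lost without any one of the 3 controls (adjusted p from 0.0632 to 0.0862).

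Among the kinases, OST1, which phosphorylates PIP2-1 in guard cells, read 9.5, 9.82 and 9.06 FPKM in the controls, 12.4, 14.2 and 15.1 in submergence and 10.8, 10.7 and 11.2 in flooding. It rose by 0.54 on the log2 scale in submergence (limma, adjusted p = 0.0123). The calcium-dependent kinase CPK7 rose by 0.35 in submergence (adjusted p = 0.0279) and by 0.45 in flooding (adjusted p = 0.0075). BAK1, a co-receptor kinase of brassinosteroid and immune receptors, rose by 0.58 in flooding (adjusted p = 0.0064), and SIRK1 (AT5G10020), a receptor kinase that phosphorylates PIP2 proteins after sucrose feeding, fell by 0.68 (adjusted p = 0.0397).

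The proton pump AHA1, which sets the voltage of the membrane in which PIPs sit, read 253.5, 259.8 and 242.8 FPKM in the controls and 211.1, 208.3 and 186.3 in flooding. It fell by 0.32 there (limma, adjusted p = 0.029). Several calls of this list depended on single libraries. OST1 lost its call without control 3 (adjusted p = 0.056). CPK7 lost its call in submergence without any one of the controls, submergence 2 or submergence 3 (adjusted p from 0.0572 to 0.115) and without the intensity trend (adjusted p = 0.0527). SIRK1 passed under 7 of 15 alternatives. Its losses included the fits without control 1, control 2, flooding 1 or flooding 3 (adjusted p from 0.0675 to 0.134). They also included no filter on low values (adjusted p = 0.0671) and all 9 samples in a single model (adjusted p = 0.0557). AHA1 lost its call without any one control or flooding 1 (adjusted p from 0.0529 to 0.117) and under median-of-ratios rescaling (adjusted p = 0.0822). Without the 3 libraries with STM and KNAT1 near 0 the calls of OST1 (adjusted p = 0.105) and CPK7 (adjusted p = 0.225) in submergence and of SIRK1 (adjusted p = 0.174) and AHA1 (adjusted p = 0.0902) in flooding were lost.

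**Figure D4:**
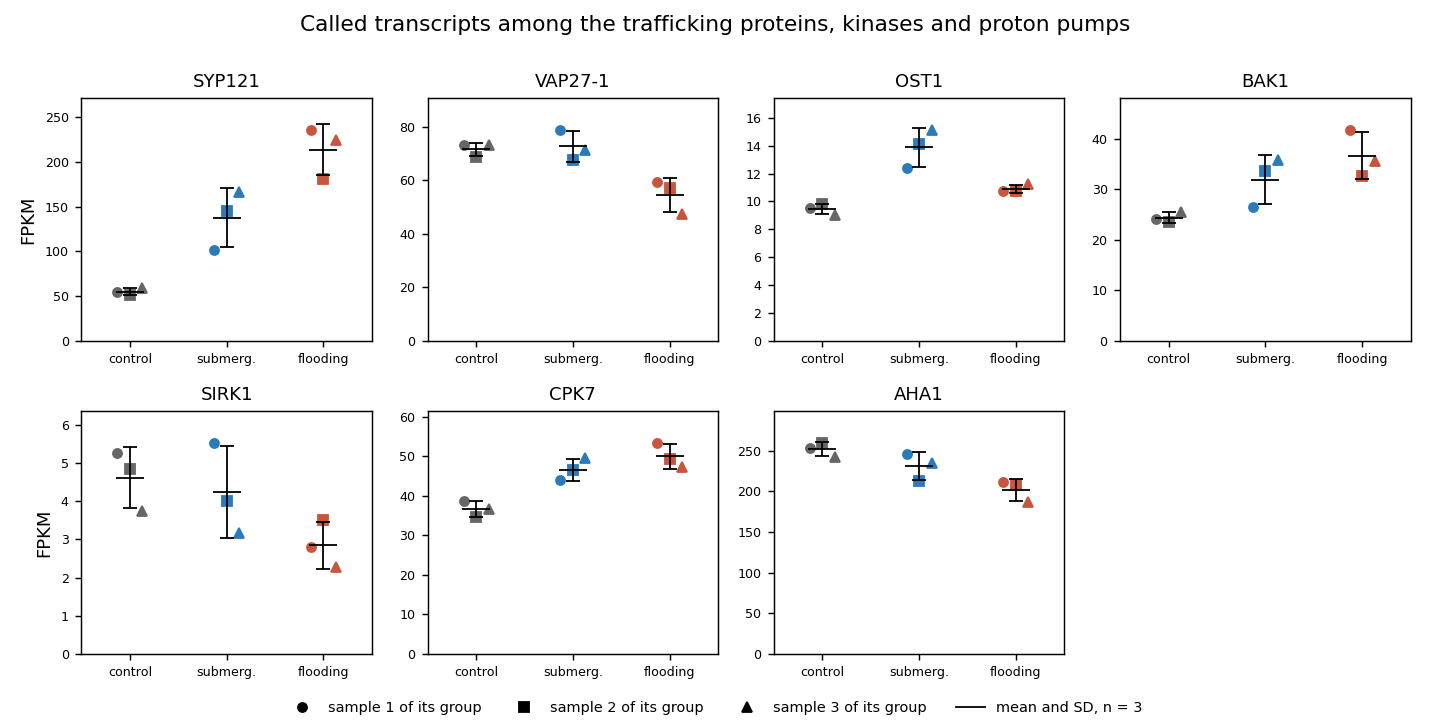
FPKM (vertical axes, each from 0) of the 7 called genes among the 11 that deliver, modify or work beside PIPs. Points are single samples, grey for control, blue for submergence and red for flooding, and the bars give the mean and SD of 3 samples. SYP121 climbs from 51.3 to 58.6 FPKM in the controls to 180.9 to 235.6 in flooding, and OST1 is highest in the 3 submergence samples (12.4 to 15.1).

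Some markers of cell types that carry PIPs also moved with the stresses, and their part in the results was not tested. Of 7 vascular markers, 3 fell in flooding (SWEET11, SWEET12 and SULTR2-2) and 0 rose, and their summed level was 183 to 245 FPKM in the controls, 137.5 to 170 in submergence and 135.6 to 157.1 in flooding. Of 3 guard cell markers, FAMA and MYB60 fell in flooding and KAT1 rose, and in submergence MYB60 fell and KAT1 rose, with sums of 44.5 to 50.5, 35.2 to 43.4 and 35.6 to 38.2 FPKM in the same order. Of 4 mesophyll markers, LHCB2.1 rose and 0 fell in flooding, while in submergence LHCB2.1 rose and LHCB1.2 fell, and the sums were 34471 to 39276 FPKM in the controls, 29212 to 31604 in submergence and 26759 to 31472 in flooding. Of the mean control sum of 36780 FPKM, LHCB1.3 gave 25390 and RBCS1A 8700. Neither of these was called in either stress (limma, adjusted p from 0.135 to 0.339). No vascular marker was called in submergence. The marker calls were not refitted without the 3 libraries with STM and KNAT1 near 0, and control 2 is among those. SWEET11 read 117.6 FPKM in control 2 against 81.7 and 85.6 in the other controls, and SWEET12 read 39.4 against 28.8 and 28.4. SULTR2-2 read 7.72 in control 2, between 7.46 and 9.0. Beside these marker counts, 17.2% of all genes tested were called down and 11.4% up in flooding, and 8.45% down and 9.03% up in submergence. After median-of-ratios rescaling the vascular sums of both stressed groups overlapped the controls, as did the mesophyll sums in flooding (26117 to 35762 FPKM against 32194 to 38711).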

How the data were processed

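RNA-seq libraries came from poly(A) RNA of 9 shoot samples, 3 per group, described as independent biological replicates of pooled plants. Reads were trimmed and aligned with STAR to TAIR10 by the authors, whose own tests used DESeq2 1.20.0. The deposited table holds FPKM, computed by the authors per gene and sample, for 32833 genes, 7662 of them at 0 throughout. The methods name featureCounts and the table name points to RSEM, so which gave the FPKM values is not settled. A count test needs read counts and the values used here are FPKM, so none was run and precision is judged from the spread between samples. Value columns named Stress1 and Stress2 were taken as submergence and flooding from the headings of the study's supplementary plots and numbered by their final digit, and 0 value columns went unmapped.

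From these values limma 3.58.1 in R 4.3.3 was run on log2(FPKM + 0.1), with an intensity trend, for genes averaging 0.5 FPKM or more in the 6 samples compared. Tests were two-sided with Benjamini-Hochberg adjustment over all genes tested and a threshold of 0.05. Fold changes of low genes are understated on this scale. Coordinates and sequences came from TAIR10.1, whose start and end matched the deposited ones for all 10 members. The fit was tested on simulated data with independent errors and no shift in scale between libraries, so that test cannot speak to scaling. Alternatives were a pseudocount of 1, no filter or a minimum of 2, median-of-ratios or quantile scaling, no trend, 1 model of all 9 samples, a replicate block and leaving out each sample. The 3 libraries with STM and KNAT1 near 0 were left out together in a further alternative, chosen after seeing the data. All 10 members, and those other aquaporins and regulators called in at least 1 comparison, were to be named. Members and lists were chosen with earlier results of these data known.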

Additional observations from a re-analysis of the deposited data

How the results depend on the processing

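PIP2-7 in submergence and PIP1-5 and PIP2-2 in flooding passed the threshold under all 15 alternatives. The count of members down in flooding (6) was 2 under median-of-ratios rescaling, 7 under quantile normalization, 3 with a replicate block and 2 to 6 with single samples left out. Over all genes the calls down in flooding were 3229 in the main fit, and 2299, 3961 and 2507 in those settings in the same order. With single samples left out they were 1643 to 3436. In submergence the count down (1) was 0 with the replicate block, 0 without the 3 samples with STM and KNAT1 near 0 and 0 to 1 with single samples left out, and the count up (1) was 1 to 2. Over all genes the calls down in submergence were 1590 in the main fit, 1011 with the block and 225 without those 3 samples. With single samples left out they were 489 to 2187. In flooding against submergence 1 member was down with all 9 samples in 1 fit. Fewer samples enter the fits with samples left out. For the other shifts the cause was not tested. Under median-of-ratios rescaling the summed FPKM of the members was 1520 in the control, 1608 in submergence and 1330 in flooding.

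Log2 changes near 0 altered sign. In submergence, rescaling gave 0.021 for PIP1-4 and 0.018 for PIP1-5, and leaving out the 3 samples with STM and KNAT1 near 0 gave −0.017 for PIP1-2, 0.077 for PIP1-4 and 0.081 for PIP1-5. With single samples left out the range was −0.077 to 0.017 for PIP1-1, −0.064 to 0.048 for PIP1-2, −0.12 to 0.075 for PIP1-4 and −0.074 to 0.042 for PIP1-5. For PIP1-4 in flooding against control the value was 0.0082 rescaled, 0.0895 without those 3 samples and −0.26 to 0.088 with single samples left out. Against submergence it was 0.012 without those 3 samples and −0.25 to 0.091 with single samples left out. Of 450 member values, 399 kept direction and side of the threshold.

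Whether same-numbered samples form pairs is not stated. Their deviations from the group means correlated at −0.15 to 0.47, and not every sample correlated best with its own number. These correlations cannot decide it, since a shared batch need not show in them. With the replicate block the calls of PIP1-1, PIP1-2 and PIP2-1 in flooding and of PIP2-2 in submergence were lost, as were those of CPK7 in submergence and AHA1 in flooding, and no other call of an aquaporin or regulator changed. Depth per gene was not available from FPKM, and with 3 samples a group small changes may go undetected.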
